A study of Homo sapiens with 6 samples.

Results

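Replication-dependent histones are the core and linker histones whose genes sit in clusters and are transcribed mainly in S phase. They were taken as the genes whose annotated symbol begins H2AC, H2BC, H3C or H4C followed by a digit, or is one of the linker genes H1-1 to H1-6, which older annotations name HIST1H to HIST4H. On the array, 69 such genes had a probe, among 78 probes in all, and 27 of the 69 genes (30 probes) were detected on at least 3 of 6 arrays and could be tested. The arrays measured RNA of the human osteosarcoma cell line U2OS, taken 48 h after the cells were given a mimic of miR-542-3p (3 arrays) or a negative control mimic (3 arrays). Such a mimic is a short double-stranded RNA made to work as the mature microRNA does. The labels name no further treatment and no allele. They do not say whether the numbered samples were separate cultures, so the p-values may reflect technical spread alone.

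As background, each nucleosome wraps DNA around pairs of H2A, H2B, H3 and H4, and linker histone H1 binds where the DNA enters and leaves. Most replication-dependent histone mRNAs end in a conserved stem-loop in place of a poly(A) tail and are made and degraded in step with DNA synthesis. Some of these genes also give polyadenylated transcripts. The labels name an Ambion MessageAmp kit for the cRNA, a method that primes from poly(A) tails, so stem-loop mRNAs are poorly reported. A change in transcript number and a change in the share with a tail cannot be told apart. Paralogous histone genes are also similar in their coding sequence, and how far each probe also binds a paralog was not tested.

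Promoter windows are shown for the genes that carry the results: H2BC5 and H2AC11, the members that rose, and H2BC12, the brightest member, which was not called. Each window runs from 250 bases before to 50 bases after the annotated start (RefSeq, GRCh38.p14), on chromosome 6: chr6:26157871-26158170 on the plus strand for H2BC5, chr6:27132793-27133092 on the plus strand for H2AC11, and chr6:27146806-27147105 on the minus strand for H2BC12. Capitals mark the octamer ATTTGCAT, the letters CCAAT and the letters TATAAA on either strand, motifs known from histone promoters.
H2BC5: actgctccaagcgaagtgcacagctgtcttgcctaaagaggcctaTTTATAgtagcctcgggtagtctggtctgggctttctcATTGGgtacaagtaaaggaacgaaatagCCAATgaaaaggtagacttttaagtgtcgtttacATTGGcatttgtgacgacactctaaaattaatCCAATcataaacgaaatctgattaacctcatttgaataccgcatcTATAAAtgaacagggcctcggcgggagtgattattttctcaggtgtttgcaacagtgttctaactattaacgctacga
H2AC11: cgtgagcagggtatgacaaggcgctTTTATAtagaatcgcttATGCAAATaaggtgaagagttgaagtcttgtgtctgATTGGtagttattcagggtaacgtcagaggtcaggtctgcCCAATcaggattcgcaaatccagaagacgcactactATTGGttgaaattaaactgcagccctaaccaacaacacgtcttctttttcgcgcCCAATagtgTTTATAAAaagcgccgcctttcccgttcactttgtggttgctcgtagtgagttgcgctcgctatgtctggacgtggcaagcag
H2BC12: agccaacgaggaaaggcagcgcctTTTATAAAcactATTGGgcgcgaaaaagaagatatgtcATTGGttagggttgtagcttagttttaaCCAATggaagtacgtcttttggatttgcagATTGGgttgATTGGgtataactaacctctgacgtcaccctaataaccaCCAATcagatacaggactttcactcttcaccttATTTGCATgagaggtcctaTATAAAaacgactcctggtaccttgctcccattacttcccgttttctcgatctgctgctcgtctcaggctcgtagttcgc
The H2BC5 window held 4 matches to CCAAT, 2 to TATAAA and none to the octamer. The H2AC11 window held 1 octamer, 4 CCAAT and 3 TATAAA matches, and the H2BC12 window 1, 6 and 3, with some TATAAA matches on the 2 strands overlapping.

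Of the 69 genes, 64 had such a window. The octamer was found in 14 of 18 H2B windows and 11 of 16 H2A windows, in 1 of 11 H3 windows, and in no H4 or H1 window, against 2.19% of 27305 genes with a window of this length. CCAAT was in every window of the H1, H2A, H2B and H3 genes (6, 16, 18 and 11) and in 3 of 13 H4 windows, against 39.7% of all genes. TATAAA was in 43 of the 64, or 67.2%, against 14% of all genes. The octamer stood in 10 of 26 tested members with a window and in 16 of 38 members that were not tested. A match is a description of letters in this window only. The windows of H2A and H2B genes that lie head to head (11 pairs, described below) overlap, so 1 match can count for both genes. The H2A and H2B counts are therefore not independent of each other.

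Across the 6 arrays, median intensity ranged from 132.2 to 151.4 and 17848 to 18652 of 47323 probes were detected. Normalized values correlated at 0.982 to 0.9897 within groups and at 0.9527 to 0.966 between groups, over 18113 detected probes. Of 8 bone-lineage marker genes, 6 were detected. With the mimic SPP1 was lower (-1.87 on the log2 scale, limma adjusted p = 0.00106), SPARC was lower (-0.48, adjusted p = 0.0406) and RUNX2 was higher (0.97, adjusted p = 0.00409), while COL1A1, ALPL and VIM were not called. Of 9 marker genes of epithelial, blood and endothelial cells with a probe, 5 were detected. EPCAM was lower with the mimic (-1.32, adjusted p = 0.0022). VWF, detected on 0 of 3 mimic and 3 of 3 control arrays, was at least 1.54-fold lower (adjusted p = 0.00818), a bound set from the lowest detected signal of each mimic array. KRT8, KRT18 and CD34 were not called, and CDH1, PTPRC, CD3E and PECAM1 were not detected. The part of these markers in the histone results was not tested.

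Most histone genes gave no measurable signal. Of the 69 genes, 35 were detected on no array by any probe, 7 on 1 or 2 arrays and 27 on at least 3. A probe counts as detected at a detection p under 0.05. The 48 probes that did not pass had mean intensities from 104.4 to 152.9, close to the array medians, and the 30 that passed ran from 154.5 to 6991. Among linker genes 2 of 6 passed, among H2A genes 5 of 17, among H2B genes 9 of 18, among H3 genes 4 of 13 and among H4 genes 7 of 15. H1-3, H1-4 and H1-5, linker histones of dividing cells, were among those not tested. So were H1-6, H2AC1 and H2BC1, which encode testis histones. No tested member passed through detection in 1 group alone.

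**Figure D1:**
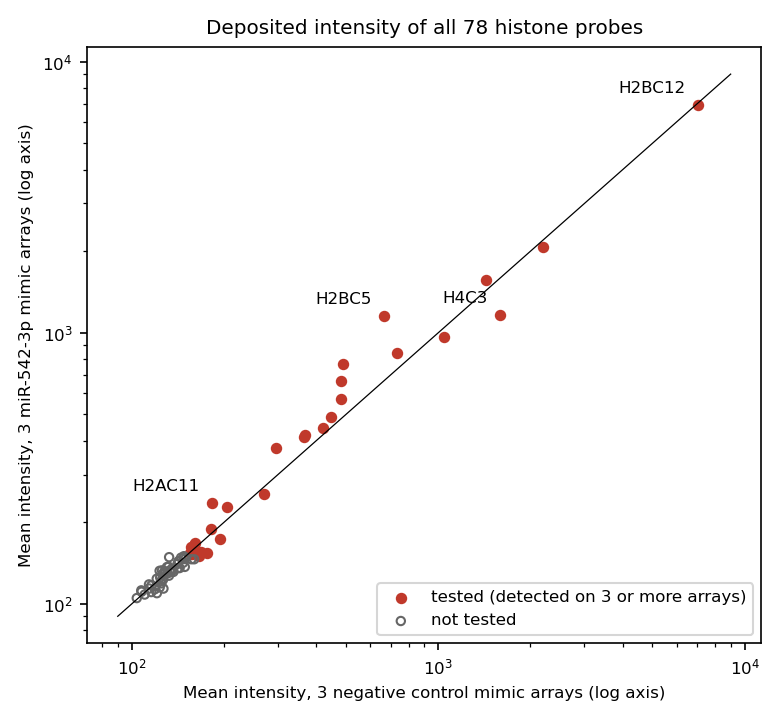
Mean deposited intensity of all 78 histone probes on the 3 miR-542-3p mimic arrays (vertical, log axis) against the 3 negative control mimic arrays (horizontal, log axis), with the line of equal intensity. Filled points are the 30 tested probes and open points the 48 others, which all lie under 153 on average; H2BC5 lies above the line and H2BC12 on it.

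Detection differed with the extent of the annotated gene. RefSeq spans over 1000 bases were annotated for 8 of the 69 genes, and 7 of them were tested: H2BC12, H2BC18, H2BC21, H2BC4, H2BC5, H3C6 and H4C15. Of these 7, H2BC18, H3C6 and H2BC4 passed at mean intensities of 158, 162 and 164, near the highest that did not pass (152.9). Among the 61 genes of up to 1000 bases, 20 were tested, or 32.8%. The number of probes per gene was not taken into account. H2BC5 spans 13229 bases and H2BC12 spans 8566, against 493 for H2AC11.

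Within the 27 tested genes, H2BC5 and H2AC11 rose with the mimic, none fell and 25 were not called (limma, adjusted p under 0.05 over all 14775 rows). Over all 10734 genes tested, 12.7% were called higher and 13.7% lower by the same rule. The members' counts in both directions lie below these shares, but with so few members the difference was not tested. Of the 27 members, 10 were detected on fewer than 6 arrays. In a fit of genes detected on all 6 arrays, 2 of 17 members and 1446 of 9074 genes were called higher. In the same fit 0 members and 1486 genes were called lower. Of the 30 tested probes 3 rose and none fell, in a fit of all 18113 detected probes in which 11.3% were called higher and 12.3% lower. At an unadjusted p under 0.05 there were 6 members, 5 higher and 1 lower, against 39.9% of all genes in either direction. The median change of the 27 genes was 0.17 on the log2 scale, beside 0.02 for all genes tested. It was 0.07 with no background correction or with the deposited log2 values, 0.03 over all 69 genes with no filter on dim probes, and 0.11 without control replicate 3. Of the changes, 17 were above 0 and 10 below. How the changes of all genes tested split around 0 was not counted.

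H2BC5, an H2B gene known to give a polyadenylated transcript in addition to the stem-loop form, had normalized log2 intensities of 10.09, 9.91 and 10.14 on the mimic arrays, against 8.89, 9.49 and 8.81 on the control arrays. Every mimic array was above every control array, and control replicate 2 was the highest of the controls. The means were 10.05 ± 0.12 with the mimic and 9.06 ± 0.37 in controls (SD, n = 3 each), a change of 0.98 ± 0.19 (SE) or 1.98-fold (limma adjusted p = 0.00825, 95% interval 0.54 to 1.43). In deposited intensity the same probe read 1224.3, 1039.9 and 1191.4 with the mimic, against 600.7, 805.2 and 594 in controls.

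The second detected probe of H2BC5, annotated to the same transcript, gave a rise of similar size. It read 9.35, 9.22 and 9.52 on the log2 scale with the mimic, against 8.59, 8.73 and 8.21 in controls. The groups did not overlap here either. Its change was 0.86 ± 0.17 (SE; limma adjusted p = 0.00771 in the probe fit). The remaining H2BC5 probe is annotated to another RefSeq transcript of the gene and was detected on no array, with intensities of 137.4, 114.9 and 119.2 with the mimic, against 124.6, 120.9 and 116.4 in controls. The rise of H2BC5 was thus measured on probes of 1 annotated transcript. The call held under all 17 alternative fits, with changes from 0.84 to 1.19, and was 1.19 without control replicate 2.

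H2AC11, an H2A gene, was dim and rose as well. Its detected probe read 6.57, 7.01 and 7.24 on the log2 scale with the mimic, against 6.16, 5.95 and 6.09 in controls, with no overlap. The means were 6.94 ± 0.34 with the mimic and 6.06 ± 0.10 in controls (SD, n = 3 each), a change of 0.87 ± 0.18 (SE; limma adjusted p = 0.0104). The deposited intensities were 217.3, 227.7 and 258.8 with the mimic, against 187.9, 170.9 and 190.8 in controls. The size of the change varied with the background step, and without background correction it was 0.39 (adjusted p = 0.00841). The gene's other probe was detected on no array, with intensities of 117.7 to 123.5 with the mimic and 110.9 to 131.9 in controls. RefSeq lists the other H2A genes H2AC13, H2AC15, H2AC16 and H2AC17 as synonyms of H2AC11, and none of these 4 was tested. Whether the signal includes these paralogs was not tested.

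**Figure D2:**
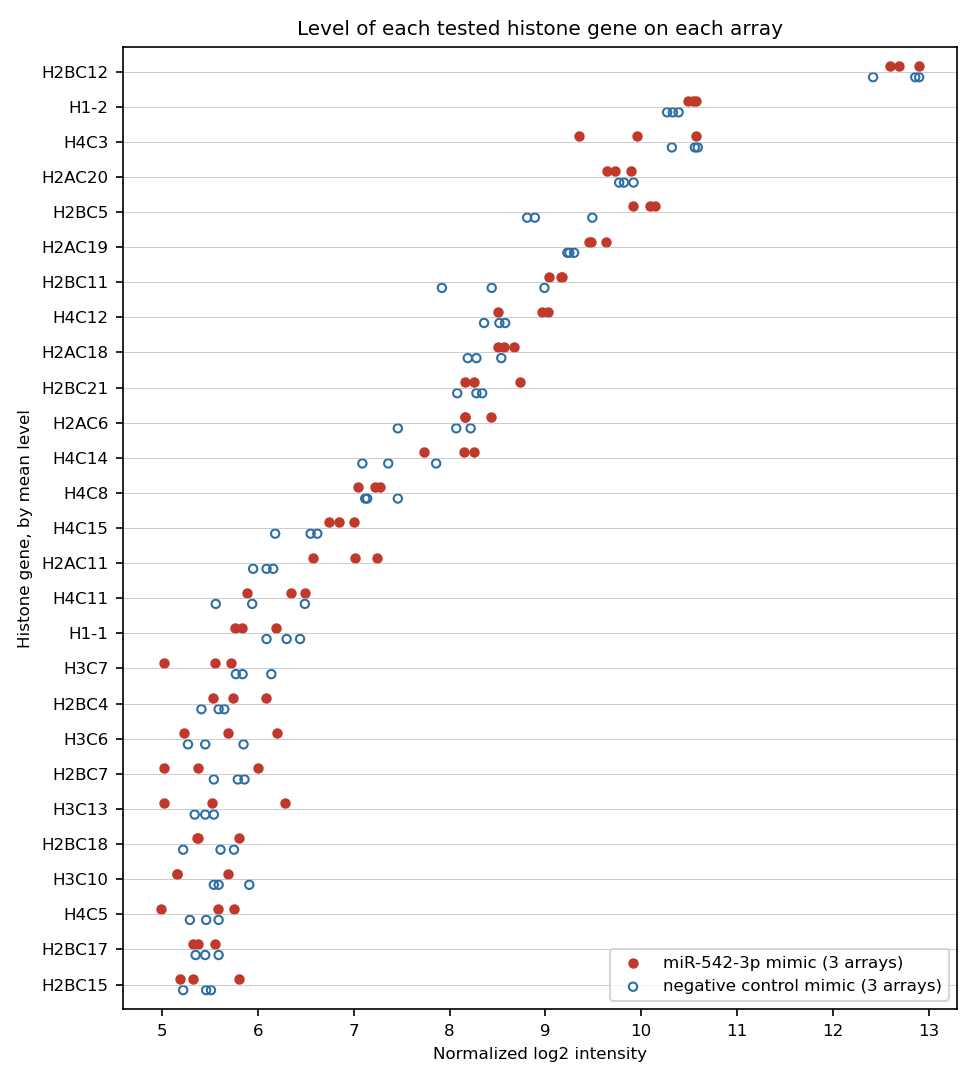
Normalized log2 intensity of each of the 27 tested histone genes on each array (1 point per array), genes ordered by mean level. Filled points are the 3 miR-542-3p mimic arrays and open points the 3 negative control mimic arrays; H2BC5 and H2AC11 show no overlap with the mimic higher, while H2BC12, the brightest, overlaps. Levels of different genes come from different probes and cannot be ranked by abundance.

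H2BC11 is the H2B gene that lies head to head with H2AC11. Their annotated starts are 248 bases apart, so the H2AC11 window printed above spans the whole stretch between them. H2BC11 read 9.16, 9.04 and 9.17 with the mimic, against 8.44, 8.99 and 7.92 in controls. The groups did not overlap, but the control arrays spread by 0.53 (SD) against 0.07 for the mimic arrays. Its change was 0.68 ± 0.24 (SE), and it did not pass the test (limma adjusted p = 0.0823, 95% interval 0.11 to 1.24). Without control replicate 2, which was close to the mimic arrays, it was called higher, at 0.95 (adjusted p = 0.0135), and so it was without background correction, at 0.52 (adjusted p = 0.0159). The changes of H2AC11 and H2BC11 differed by 0.20 (two-sided exact permutation test, p = 0.7, n = 3 per group, smallest possible p 0.1). The array-wise differences spread by 0.36 (SD) with the mimic and 0.61 in controls. With so few arrays and this spread, the test cannot show whether the changes of the 2 genes are alike.

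Among the 64 members with a promoter window, head-to-head starts at most 300 bases apart were found for 11 pairs. Each was an H2A gene with an H2B gene. Members without a window, H2AC12 among them, could not be searched, so the pairs may be incomplete. In 3 of them both genes were tested. Beside the pair above, the log2 differences were 0.23 for H2BC4 and 0.33 for its partner H2AC6, and 0.15 for H2BC21 and -0.08 for its partner H2AC20, none called (limma adjusted p 0.29 to 0.676). In 3 further pairs, the H2B genes H2BC7, H2BC15 and H2BC17 were tested and their H2A partners were not.

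The other H2B genes did not pass. H2BC12, which like H2BC5 is known to give a polyadenylated transcript, read 12.60, 12.90 and 12.69 with the mimic, against 12.90, 12.86 and 12.42 in controls, with full overlap. Its change was 0.00 (95% interval -0.38 to 0.39), and its second probe gave -0.04 (95% interval -0.47 to 0.38). Between H2BC5 and H2BC12, the changes differed by 0.98, with no overlap of the array-wise differences (two-sided exact permutation test, p = 0.1, which is the smallest that 3 arrays against 3 can give). This pair was chosen after its values were seen. H2BC21 had a difference of 0.15 (95% interval -0.25 to 0.55), and H2BC4, H2BC7, H2BC15, H2BC17 and H2BC18, all near the detection limit, had differences of -0.26 to 0.23.

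Among the H2A genes, H2AC19 read 9.63, 9.46 and 9.48 with the mimic, against 9.30, 9.25 and 9.23 in controls. The groups did not overlap, yet the change of 0.26 did not pass (limma adjusted p = 0.15). H2AC18, which RefSeq lists as a synonym of H2AC19, gave 0.25 and 0.34 by its 2 probes, neither called. Whether the probes separate these copies was not tested. The difference was -0.08 for H2AC20 (95% interval -0.37 to 0.20) and 0.33 for H2AC6 (95% interval -0.14 to 0.81). The 5 tested H2A genes had a median change of 0.26, with 4 of 5 above 0.

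Of the 7 tested H4 genes none passed, and they lay on both sides of 0, from -0.53 to 0.61. H4C14 read 8.15, 7.73 and 8.26 with the mimic, against 7.09, 7.86 and 7.36 in controls, with mimic replicate 2 below control replicate 2. Its change was 0.61 ± 0.22 (SE; limma adjusted p = 0.0835). It was called higher without control replicate 2 (0.82, adjusted p = 0.0285) or mimic replicate 2 (0.77, adjusted p = 0.0442), and with no background correction (0.40, adjusted p = 0.0283). H4C15 had a difference of 0.41 with no overlap between groups, and H4C12 one of 0.35, neither called. H4C12 was called without mimic replicate 2 (0.51, adjusted p = 0.0312). H4C3, the brightest H4 gene probe, read 10.57, 9.35 and 9.96 with the mimic, against 10.59, 10.32 and 10.56 in controls. The mimic arrays spread widely (SD 0.61) and mimic replicate 1 was level with the controls. Its change was -0.53 (95% interval -1.17 to 0.11), and without mimic replicate 1 it was called lower, at -0.83 (adjusted p = 0.0365).

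**Figure D3:**
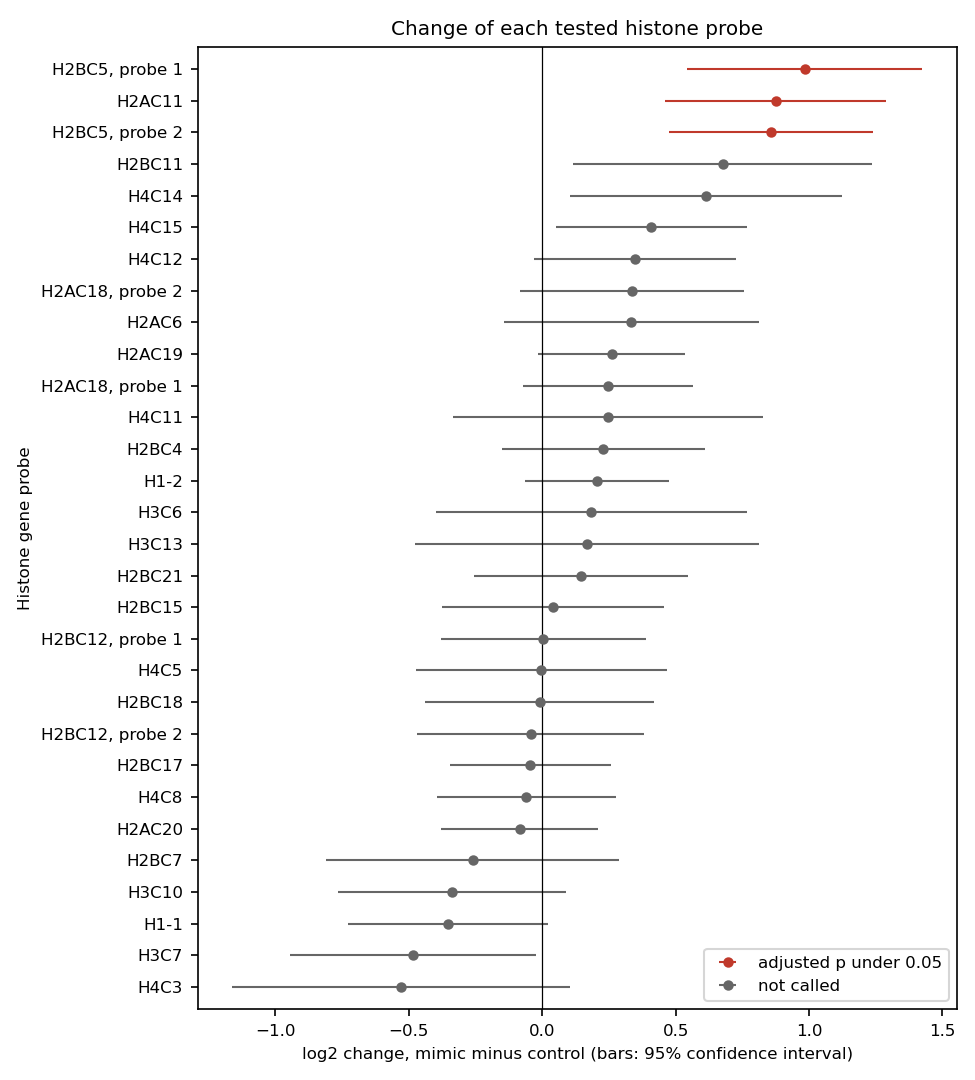
Change of each of the 30 tested histone probes (log2, mimic minus control) with its 95% confidence interval, from the fit of all detected probes with 3 arrays per group. The 3 filled-red probes, 2 of H2BC5 and 1 of H2AC11, have an adjusted p under 0.05 with changes of 0.86 to 0.98, and the 27 grey probes do not.

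The H3 and linker genes gave no call. H3C7 read 5.72, 5.55 and 5.02 with the mimic, against 6.14, 5.84 and 5.77 in controls. It was the 1 member whose mimic arrays all lay below the control arrays, at a change of -0.48 (limma adjusted p = 0.121), and it was detected on 2 of 3 mimic arrays. The differences were -0.34 for H3C10, 0.18 for H3C6 and 0.17 for H3C13. H1-2, the brightest linker gene probe, read 10.54, 10.49 and 10.57 with the mimic, against 10.39, 10.33 and 10.27 in controls, with no overlap and a change of 0.20 (95% interval -0.06 to 0.47; limma adjusted p = 0.236). H1-1 had a difference of -0.35 (adjusted p = 0.156).

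In all, the mimic arrays lay above the control arrays for 6 of 27 members (H2BC5, H2AC11, H2BC11, H4C15, H2AC19 and H1-2), against 23.0% of all genes tested, and below them for 1, against 22.1% of all genes. The 6 are about the share of all genes and the 1 is below it. Relative to the control mean, the median deviation over the 27 genes was between 0.04 and 0.21 on the mimic arrays and between -0.08 and 0.10 on the control arrays. Control replicate 3 was the lowest of the controls for 14 of the 27 genes and control replicate 2 the highest for 14, and the part of these arrays in the results was measured only by leaving each out. The 17 members detected on all 6 arrays had a median of 0.25, with 13 above 0 and 4 below. Neither figure was taken for all genes detected on all 6 arrays, so this is no measure of the members against other genes. All 8 tested genes of the chromosome 1 clusters went without a call, and both that rose are among the 19 tested genes of chromosome 6. Over all genes tested 12.7% were called higher, and with 2 calls a difference between the chromosomes was not tested.

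**Figure D4:**
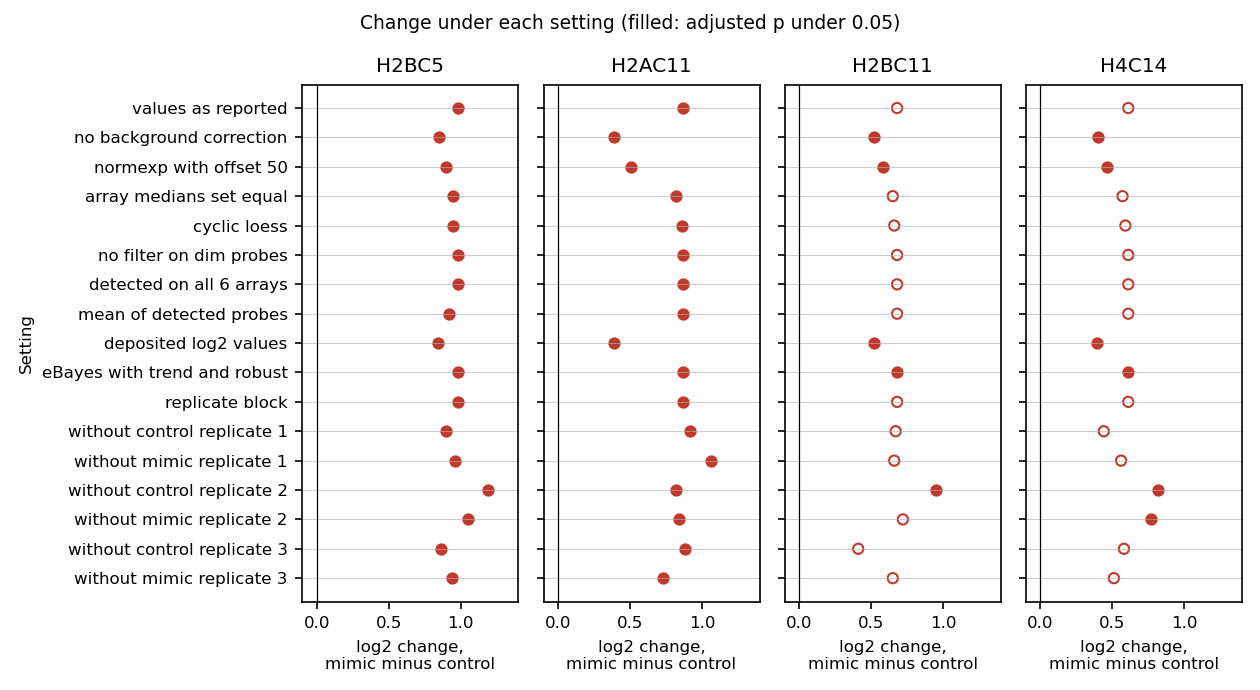
Change (log2, mimic minus control) of H2BC5, H2AC11, H2BC11 and H4C14 under the reported setting and each alternative, 1 point per setting, filled where the adjusted p is under 0.05. H2BC5 and H2AC11 are filled throughout, H2AC11 drops to 0.39 with no background correction, and H2BC11 and H4C14 are filled under some settings.

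Other histone genes outside the replication-dependent clusters were set beside the members. Of 11 tested variant genes, 4 fell (13.7% of all genes did), none rose and 7 were not called, with a median of -0.31. MACROH2A2, a macroH2A of silent chromatin, read 9.24, 9.09 and 9.39 with the mimic, against 10.11, 10.21 and 10.20 in controls, and fell by 0.93 ± 0.13 (SE; limma adjusted p = 0.00173). H2AX, the H2A variant phosphorylated at DNA breaks, is known to give a stem-loop mRNA in S phase as well as a polyadenylated one. It read 8.66, 8.81 and 8.73 with the mimic, against 9.44, 9.55 and 9.78 in controls, and fell by 0.86 ± 0.13 (adjusted p = 0.00311). MACROH2A1 fell by 0.55 and H2AZ2 fell by 0.77. H2AZ2 was called in 3 and MACROH2A1 in 5 of 6 fits that left out an array (highest adjusted p 0.0585 and 0.0533), and the list had 2 falls without control replicate 1. H3-3A and H3-3B, which encode the replication-independent H3.3, had differences of -0.05 each. CENPA, the H3 of centromeres, had a difference of -0.46 (adjusted p = 0.0732).

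Of 24 tested genes for histone gene transcription and mRNA processing, 3 fell, none rose and 21 were not called, a share of falls near the 13.7% of all genes, with a median of -0.04. SLBP, which binds the stem-loop, read 9.45, 9.75 and 9.36 with the mimic, against 9.82, 10.07 and 9.56 in controls, a change of -0.30 (95% interval -0.70 to 0.09; limma adjusted p = 0.25). NPAT, the cyclin E-CDK2 substrate that activates histone genes, had a difference of 0.00 (95% interval -0.44 to 0.44). CDK2 fell by 1.08 ± 0.12 (adjusted p = 0.000746), SNRPD3, an Sm protein of small nuclear ribonucleoproteins, fell by 0.79, and UPF1, a helicase that takes part in histone mRNA decay, fell by 0.41. SNRPD3 was called in 2 of 6 fits that left out an array (highest adjusted p 0.0843) and UPF1 in none of them (highest adjusted p 0.124). The list had 1 fall without mimic replicate 1, control replicate 1 or control replicate 2.

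Of 19 tested chaperone genes 5 fell, none rose and 14 were not called, against 13.7% of all genes lower, and their median change was -0.28. NAP1L1, an H2A-H2B chaperone, read 8.14, 8.66 and 8.18 with the mimic, against 9.68, 9.65 and 9.74 in controls, and fell by 1.36 ± 0.16 (SE; limma adjusted p = 0.00101). NASP, a chaperone of H1 and of H3-H4, fell by 1.13 ± 0.14, ASF1B, which hands over H3-H4, by 0.85 ± 0.13, and RBBP4, a subunit of chromatin assembly factor 1, by 0.76 ± 0.16. RBBP4 was at -0.31 and not called with the mean of its detected probes (limma adjusted p = 0.147). CABIN1 (-0.46) kept its call in 1 of 6 fits without an array. Of 19 tested S-phase genes 11 fell (13.7% of all genes did), none rose and 8 were not called, and their median change was -0.52. Among these, GINS4, of the replicative helicase, fell by 0.85, RRM2, which makes deoxynucleotides, by 0.76, and CDT1, a licensing factor, by 0.68, beside PCNA (-1.18), MCM6 (-1.06) and RRM1 (-0.47). CDT1 and RRM1 were each called in 2 of 6 fits that left out an array (highest adjusted p 0.0775 and 0.0716) and RRM2 in 5 (highest adjusted p 0.0525). There were 3 falls in place of 11 without control replicate 1, and 4 without mimic replicate 1, mimic replicate 3 or control replicate 2. Of the uncalled S-phase genes, TYMS (0.30, no overlap between groups), CCNA2 (0.37) and POLA1 (0.02) lay above 0, and the others below.

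**Figure D5:**
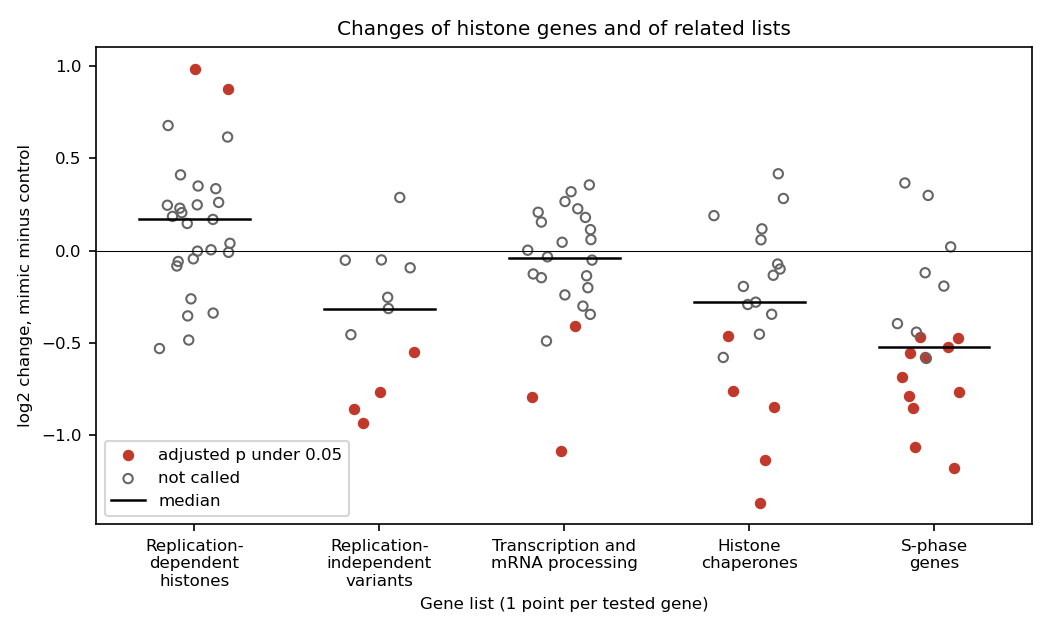
Change (log2, mimic minus control) of each tested gene in 5 lists, with the list's median as a line and filled points for an adjusted p under 0.05. The histone genes have a median of 0.17 with 2 called, both above 0, and the called genes of the other 4 lists all lie below 0.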

How the data were processed

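The authors deposited a non-normalized table of signal intensities of 47323 probes on 6 Illumina bead arrays with a detection p-value beside each, per the file headers. The deposited log2 values of the series served as an alternative; their column medians are 7.138 to 7.139, they follow the log2 intensities (r at least 0.999936), and they are not centred by gene. Their normalization method, the scanner software and the slides are not given in the sources. Same-numbered arrays were not treated as pairs. Probes were named through the platform annotation, in which 30113 probes had 1 gene, and checked against RefSeq (GRCh38.p14).

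Intensities were corrected with nec (offset 16), quantile-normalized on a log2 scale, with limma 3.58.1 in R 4.3.3. Only probes detected on at least 3 arrays entered the fit. Each gene took the value of its brightest such probe; in a second fit every probe stood alone. Groups were compared with lmFit and eBayes, without covariates, and Benjamini-Hochberg adjustment over all rows. The number of arrays limits the precision. The fit was tested on simulated data of 14775 rows, with 66 or 67 rows changed at each size. It recovered 2.99% of changes of 0.5 on the log2 scale, 59.7% of changes of 1 and 90.9% of changes of 2. Far fewer rows changed there than were called in these data, so the shares recovered need not hold here.

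All members are accounted for; called members and H2BC5 are described in full, the rest with values, and up to 6 called genes of each other list. Members and lists were chosen with earlier results of these data known.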

Additional observations from a re-analysis of the deposited data

How the results depend on the processing

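The rise of H2BC5 held under all 17 alternatives, and that of H2AC11 under all but an adjusted p under 0.01. At that threshold 1 histone gene rose, and the falls were 3 chaperones, 1 transcription and processing gene, 2 variants and 3 S-phase genes, with 606 genes higher and 824 lower over the array. Without background correction, or with the deposited log2 values, normexp at an offset of 50 or eBayes with trend and robust, 4 histone genes and 5 histone probes rose, the further genes being H2BC11 and H4C14. With no background correction or the deposited values, the histone median was 0.07, and 1 chaperone, 1 variant and 1 S-phase gene rose; eBayes with trend and robust also gave 1 rise each of chaperones and S-phase genes. With no filter on dim probes the median over 69 histone genes was 0.03, and the falls were 1 transcription and processing gene and 6 S-phase genes. With the mean of detected probes 1 transcription and processing gene rose. For these shifts the cause was not tested.

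Leaving out 1 array gave 2 to 4 histone genes and 3 to 5 histone probes higher, the highest counts without mimic replicate 2 or control replicate 2. It gave 0 to 1 of each lower, the 1 (H4C3) without mimic replicate 1. In these fits 22 to 26 histone genes were tested. Over the array 811 to 1335 genes were then higher. Transcription and processing genes had 0 to 1 rise and 1 to 2 falls, variants 2 to 5 falls and S-phase genes 3 to 13 falls.

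Uncalled differences near 0 changed sign. H2BC12 was at -0.00 with array medians set equal and at -0.02 with cyclic loess or the mean of detected probes, H2BC18 at 0.00 and H4C5 at 0.01 with cyclic loess, and NPAT at -0.03 with array medians set equal. With 1 array left out, H2BC12 lay between -0.15 and 0.09, H2BC21 between -0.03 and 0.26 and H3C13 between -0.17 and 0.47. H4C8 lay between -0.12 and 0.05, and NPAT between -0.20 and 0.15. Only 3 of these 6 fits tested H2BC15, H2BC17, H2BC18 and H4C5. In those, H2BC15 lay between -0.05 and 0.16, H2BC17 between -0.10 and 0.00, H2BC18 between -0.16 and 0.07 and H4C5 between -0.08 and 0.22.

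In a fit with replicate block, H2BC5 was at 0.98 (limma adjusted p = 0.0233) and H2AC11 at 0.87 (adjusted p = 0.0225), with 1262 genes higher and 1396 lower over the array. The labels do not say whether same-numbered arrays belong together. Deviations of same-numbered arrays from the group means correlated at 0.020, 0.074 and 0.099, and 4 of 6 arrays correlated best with their own number. Whether they share a batch was not tested. The number of arrays limits the precision, and most histone probes lie too close to background for a difference to be measured.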
